A study of Mus musculus with 6 samples.

Results

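Claudins are the membrane proteins that form the strands of tight junctions, the seals that close the gap between neighbouring epithelial cells. Their extracellular loops decide what passes through that gap: some claudins build channels for small ions and water, and others close the gap to them. In the intestine Cldn2 and Cldn15 are the classical channel formers, and both pass sodium. Cldn1, Cldn3, Cldn4 and Cldn8 are usually classed as sealing claudins, Cldn5 seals the endothelium of blood vessels, and Cldn7, Cldn12 and Cldn23 have roles that are less settled. The 10 genes named here were looked up by symbol in a table of 20594 genes measured in mouse colon, and all 10 were found. All of them also passed the filter for testing, which asked for 1 FPKM or more in 3 or more libraries.

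The study compared colon of 3-week-old C57BL/6J offspring whose dams had received dextran sulfate sodium (DSS), a chemical that injures the colon epithelium, with offspring of dams that had not. Control libraries (n = 3) came from dams on 0% DSS and maternal DSS libraries (n = 3) from dams on 1.5% DSS, in both cases from embryonic day 13 to 19 per the sample labels, while the series text speaks of 5 days. Each sample title names 3 offspring, which can mean a pool of 3 animals or the 3 libraries of a group, and no dam, litter, sex or batch is given. The p-values therefore measure the spread between libraries, and an effect of single dams cannot be told apart from an effect of DSS. The offspring received no DSS themselves, as far as the labels say.

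Values are FPKM, fragment counts scaled for transcript length and library size. They allow levels to be compared between genes, and between libraries only as far as the make-up of the libraries is alike. Sequencing depth is unknown. All 10 epithelial markers, among them Epcam and Cdh1, were abundant, with summed levels of 4689 to 4943 FPKM in the controls, and 4716 to 5390 FPKM in maternal DSS libraries. The libraries also differed in other tissue. Maternal DSS 2 and 3 held more small intestine transcripts (10 of the 12 listed genes were in the table, summed 165 and 178 FPKM against 38.2 to 58.1 FPKM in the other 4 libraries, with Lct at 0.073 FPKM or less throughout). Fabp6 (72.7 and 52.4 FPKM) and Apoa1 (30.6 and 47.5 FPKM) were the largest part of this difference. Alpi was not higher in these libraries, at 16.9 and 14.7 FPKM against 12 to 29.5 FPKM elsewhere. Maternal DSS 1 held more stratified squamous epithelium transcripts (10 of 10 genes in the table, summed 228 FPKM against 12.2 to 69.6 FPKM elsewhere) and skeletal muscle transcripts (8 of 8 genes, 1121 FPKM against 71.4 to 361 FPKM). These last 2 lists were written after the values had been seen. In whole colon, fewer cells of a type and less RNA per cell cannot be told apart.

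Claudin transcripts fell into a steep order that was nearly the same in every library. Cldn7, a claudin found along the lateral membranes of intestinal epithelium, was first in 6 of 6 libraries with 294 ± 16.3 FPKM (SD over all 6 libraries), and Cldn3, a sealing claudin, was second in all 6 with 188 ± 16.4 FPKM. Together they made up between 65.1% and 72.2% of the summed FPKM of the 10 genes. The channel formers Cldn15 (59 ± 2.78 FPKM) and Cldn2 (57.2 ± 10 FPKM) and the sealing Cldn4 (46 ± 17.9 FPKM) followed, and their order changed between libraries. Cldn23 (19.4 ± 3.13 FPKM), which lies in the luminal part of the epithelium, Cldn12 (16.2 ± 1.34 FPKM), reported to conduct calcium, and Cldn8 (14.4 ± 2.82 FPKM), a sodium barrier of the distal colon, formed a lower tier. Cldn5 (5.18 ± 0.428 FPKM) and Cldn1 (2.25 ± 0.909 FPKM), the main sealing claudin of the epidermis, came last in every library.

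Of the 9 neighbouring pairs in this order, 5 were separated in all 6 libraries with ranges that did not overlap: Cldn7 over Cldn3, Cldn3 over Cldn15, Cldn4 over Cldn23, Cldn8 over Cldn5 and Cldn5 over Cldn1. The narrowest of these was Cldn4 over Cldn23, where the lowest Cldn4 value was 26.5 FPKM and the highest Cldn23 value 23.6 FPKM. The other 4 pairs overlapped. Cldn15 exceeded Cldn2 in 5 libraries although their mean levels differed by a factor of only 1.03, and Cldn2 exceeded Cldn4 in 3 of 6. Cldn23 and Cldn12, and Cldn12 and Cldn8, each kept their order in 5 libraries.

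**Figure D1:**
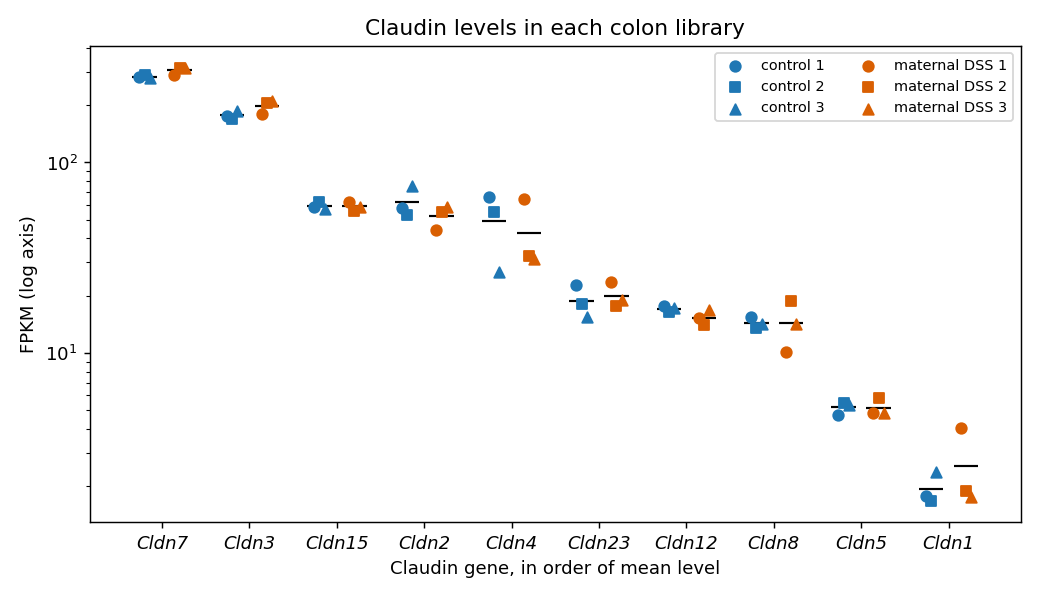
Level of each claudin in FPKM (log axis) in the 3 control libraries (blue) and the 3 maternal DSS libraries (orange), with genes in order of mean level and the mean of each group as a black line. Cldn7 and Cldn3 lie above all others, the Cldn4 values of both groups spread from 26.5 to 66.2 FPKM, and maternal DSS 1 stands apart for Cldn1.

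No claudin passed the test across all genes for a difference between offspring of DSS-treated and control dams. In limma, 0 of the 10 members had an adjusted p under 0.05, and 0 of 13594 genes (0%) did. At an unadjusted p under 0.05 the count was again 0 of 10, beside 7.83% of all tested genes. By log2 fold change (from log2(FPKM + 1), positive where maternal DSS libraries were higher), 4 members were above 0 and 6 below (7 and 3 after median-ratio scaling, 3 and 7 when libraries were rescaled to equal FPKM sums), with a median of -0.01 beside -0.04 over all tested genes. The median size of the difference without its sign was 0.13 for the members and 0.11 for all genes. The groups did not overlap for 1 of 10 members, Cldn7, which was higher in maternal DSS libraries. Over all genes that share was 14.1%, and 4.92% in the higher direction. Weighting libraries by their estimated spread, which put most weight on maternal DSS 2 and least on maternal DSS 1, instead gave 4933 limma calls among all genes (36.3%) and 3 among the 10 claudins, with Cldn3 higher and Cldn4 and Cldn12 lower in maternal DSS libraries (adjusted p = 0.0165, 0.0319 and 0.0214). Leaving out maternal DSS 1 gave 10 calls, with 0.168 as the smallest adjusted p of a claudin.

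Cldn7 had 281, 287 and 276 FPKM in control libraries 1, 2 and 3 and 289, 315 and 313 FPKM in maternal DSS 1, 2 and 3. Every maternal DSS library was above the highest control, maternal DSS 1 by a narrow margin. The difference was a factor of 1.09 between group means (log2 fold change 0.12 with an SE of 0.08, 95% interval -0.08 to 0.31, limma adjusted p = 0.66). Scaling the libraries by median ratios left no member without overlap between groups, since it lowered maternal DSS 1 and raised control 3. Rescaled to equal FPKM sums, Cldn7 had a log2 fold change of 0.01. The summed epithelial markers were 4943, 4899 and 4689 FPKM in the controls, and 4716, 5390 and 5341 FPKM in maternal DSS 1, 2 and 3. Libraries were also scaled to the mean log2 level of these markers, each weighted alike, which differs from the sum. The scaling factors were 1.025, 1.009 and 0.97 in the controls, and 0.982, 1.017 and 0.997 in maternal DSS 1, 2 and 3. With these factors the log2 fold change of Cldn7 was 0.12 (limma adjusted p = 0.66) and its groups did not overlap. Scaling by the summed levels, of which Krt8 and Krt19 were the largest parts, was not run.

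Cldn3, like Cldn7, was highest in maternal DSS 2 and 3. It had 175, 169 and 187 FPKM in the controls, and 179, 206 and 209 FPKM in maternal DSS 1, 2 and 3, so maternal DSS 1 lay within the controls and the other 2 above them. The log2 fold change was 0.16 (SE 0.09, 95% interval -0.06 to 0.38, limma adjusted p = 0.62). It was 0.23 without maternal DSS 1 and 0.04 when libraries were rescaled to equal FPKM sums.

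**Figure D2:**
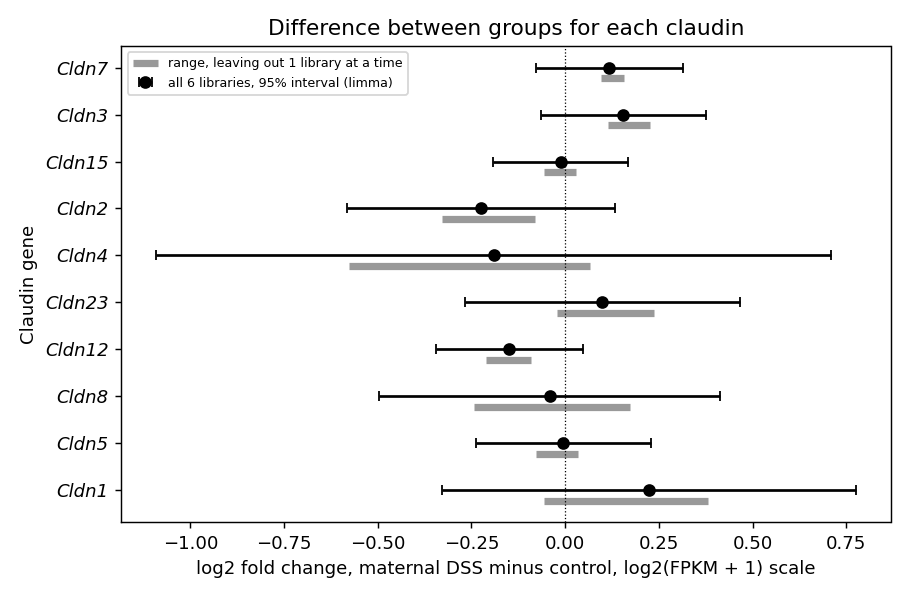
Log2 fold change of each claudin, positive where maternal DSS libraries were higher, from log2(FPKM + 1), with the 95% interval from limma (black, n = 3 libraries per group) and the range obtained when each library in turn is left out (grey bar). All 10 intervals include 0, and that of Cldn4 is the widest, from -1.09 to 0.71.

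The channel formers differed in how much they varied. Cldn15 was among the steadiest genes of the table: it had 58.6, 62.1 and 57.1 FPKM in the controls, and 62.4, 55.3 and 58.7 FPKM in maternal DSS libraries, a coefficient of variation of 4.71% that exceeded that of only 5.68% of tested genes. The group means were 59.3 ± 2.59 and 58.8 ± 3.54 FPKM (SD, n = 3 each), and the 95% interval of the log2 fold change ran from -0.19 to 0.17 (adjusted p = 0.96 in limma). Cldn15 is known to be richer in small intestine than in colon. Of the libraries with the most small intestine transcripts, maternal DSS 2 (165 FPKM of them) had the lowest Cldn15 level of all 6 and maternal DSS 3 (178 FPKM) the third highest, and the part of these transcripts in the Cldn15 levels was not tested.

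Cldn2, a channel for sodium and water that is prominent in the crypts and in the infant gut, had 57.9, 52.8 and 74.9 FPKM in the controls, and 44.5, 55 and 58.3 FPKM in maternal DSS 1, 2 and 3. Control 3 was the highest and maternal DSS 1 the lowest, and the other 4 libraries lay between 52.8 and 58.3 FPKM with both groups mixed. The log2 fold change was -0.22 (SE 0.15, 95% interval -0.58 to 0.13, limma adjusted p = 0.65). It was -0.08 without control 3 and -0.11 without maternal DSS 1, so each of these libraries supplied much of the difference. With libraries rescaled to equal FPKM sums, Cldn2 had a log2 fold change of -0.34 with an unadjusted p of 0.0234 and an adjusted p of 0.56 in limma. That rescaling also moved the median over all genes, from -0.04 to -0.14.

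Because both channel formers were near 60 FPKM in controls, their ratio could be read per library. The Cldn2 level divided by the Cldn15 level was 0.989, 0.85 and 1.31 in controls and 0.713, 0.995 and 0.993 in maternal DSS libraries, and the groups overlapped.

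Cldn4 was the most variable of the abundant claudins, and its variation did not follow the groups. It had 66.2, 55.3 and 26.5 FPKM in control libraries 1, 2 and 3 and 64, 32.4 and 31.3 FPKM in maternal DSS 1, 2 and 3. High and low values occurred in both groups: controls 1 and 2 and maternal DSS 1 were high, and control 3 and maternal DSS 2 and 3 low, with 2.5 times between the highest and the lowest library. Its coefficient of variation of 38.9% exceeded that of 96.8% of tested genes. The group means were 49.3 ± 20.5 and 42.6 ± 18.6 FPKM, and the log2 fold change of -0.19 (SE 0.38, limma adjusted p = 0.86) became 0.07 without control 1, -0.58 without control 3 and -0.52 without maternal DSS 1. Of 12 summed lists of other genes, 7 divided the libraries into the same 3 and 3 as Cldn4, and their part in the Cldn4 levels was not tested. The share of all genes that divide the libraries so was not counted, so 7 of 12 cannot be called unusual. Deviations from the group mean across all tested genes followed the same division. They correlated at 0.276 and 0.512 between controls 1 and 2 and maternal DSS 1, and at -0.541 between control 3 and maternal DSS 1. Control 3 gave 0.38 and 0.404 with maternal DSS 2 and 3, and controls 1 and 2 gave -0.384 to -0.171 with them. The division was thus not particular to Cldn4. Some lists share genes, and the skeletal muscle list was written after the values had been seen. Lower in the 3 libraries with much Cldn4 were the macrophage markers (7 of 7 genes in the table, 59.5 to 76.4 FPKM against 92.5 to 117 FPKM), the B and plasma cell markers (7 of 7, 66.1 to 80.7 FPKM against 82.9 to 144 FPKM) and the distal colon markers (5 of 6, 58.1 to 98.4 FPKM against 107 to 120 FPKM). Xbp1 held most of the B and plasma cell sum (56.3 to 77.1 FPKM), and Hoxb13 most of the distal colon sum (43.2 to 104 FPKM). Hoxa13, Hoxd13, Hoxd12 and Hoxd11 went the other way among the controls, higher in controls 1 and 2 than in control 3. Hoxd13, for example, had 13.25, 10.2 and 7.13 FPKM in controls 1, 2 and 3. Higher in the 3 libraries with much Cldn4 were the smooth muscle markers (8 of 8, 3020 to 3116 FPKM against 2420 to 2901 FPKM), the skeletal muscle markers (216 to 1121 FPKM against 71.4 to 108 FPKM), the mesothelial markers (5 of 5, 12.7 to 44.8 FPKM against 4.52 to 12 FPKM) and the tight junction partners (25 of 26, 679 to 711 FPKM against 587 to 626 FPKM). Krt5, also on the squamous list, was the largest part of the mesothelial sum (39.7 FPKM in maternal DSS 1). Msln, Upk3b and Wt1, at 2.28 FPKM or less, divided the libraries in this way, and Krt5 and Lrrn4 did not. The other 5 lists, among them the epithelial and small intestine markers, overlapped between these libraries.

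Cldn3 and Cldn4 are neighbours on chromosome 5, both with a single exon, and 39279 bases lie between them. Cldn4 is transcribed from the minus strand (134945123 to 134946934, mm10) and Cldn3 from the plus strand (134986214 to 134987476). The ratio of their levels was not constant: the Cldn3 level was 2.65, 3.07 and 2.79 times the Cldn4 level in controls 1 and 2 and maternal DSS 1, and 7.06, 6.35 and 6.68 times in control 3 and maternal DSS 2 and 3. The 250 bases before the start of each gene are shown for this pair and for the channel formers Cldn15 and Cldn2, which differed in their spread between libraries (RefSeq, GRCm38.p6, 5′ to 3′ along the gene's own strand; capitals mark matches to TGANTCA, the motif of AP-1 transcription factors, which reads alike on both strands).
Cldn4, chr5:134946935-134947184, minus strand: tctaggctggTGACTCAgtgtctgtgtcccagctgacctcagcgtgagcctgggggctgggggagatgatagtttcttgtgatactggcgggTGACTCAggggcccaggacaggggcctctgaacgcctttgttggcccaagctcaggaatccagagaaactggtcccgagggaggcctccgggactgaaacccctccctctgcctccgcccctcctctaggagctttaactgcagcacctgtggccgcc
Cldn3, chr5:134985964-134986213, plus strand: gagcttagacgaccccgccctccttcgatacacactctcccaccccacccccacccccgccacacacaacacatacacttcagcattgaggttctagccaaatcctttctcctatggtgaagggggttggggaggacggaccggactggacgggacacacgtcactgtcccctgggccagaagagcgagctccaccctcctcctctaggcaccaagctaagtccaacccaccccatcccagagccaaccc
Cldn15, chr5:136967619-136967868, plus strand: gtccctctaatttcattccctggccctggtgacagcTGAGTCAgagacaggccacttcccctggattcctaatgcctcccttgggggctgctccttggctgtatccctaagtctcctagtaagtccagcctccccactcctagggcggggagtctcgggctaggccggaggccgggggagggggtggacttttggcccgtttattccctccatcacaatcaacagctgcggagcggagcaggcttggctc
Cldn2, chrX:139800558-139800807, plus strand: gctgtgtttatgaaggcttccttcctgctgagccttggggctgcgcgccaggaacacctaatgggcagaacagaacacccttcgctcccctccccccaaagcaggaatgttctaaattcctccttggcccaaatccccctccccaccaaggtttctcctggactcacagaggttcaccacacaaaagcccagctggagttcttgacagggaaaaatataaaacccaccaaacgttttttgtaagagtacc

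Cldn4 held 2 of these matches, Cldn15 held 1, and the windows of Cldn3 and Cldn2 held none. Among 32851 RefSeq windows of this length, 6.75% held at least 1 match and 0.338% held 2 or more. Windows were matched for 8 of the 10 claudins (all but Cldn8 and Cldn23), and Cldn4 and Cldn15 were the 2 with a match in any of their windows. TTTATNG, a motif of the intestinal CDX factors searched on both strands, was in the windows of 0 of these 8 genes and in 9.81% of all windows, and the GC box GGGCGG was in those of 7 of the 8 and in 32.7% of all. The 8 genes have 11 windows and are counted by gene, whereas the shares of all are by single window, so these figures are not like for like. A match describes the letters of the window and is not a measured binding site.

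The less abundant sealing claudins, Cldn8 and Cldn1, each had their highest value in a maternal DSS library. Cldn8 had 15.4, 13.5 and 14.2 FPKM in the controls, and 10.1, 18.8 and 14.2 FPKM in maternal DSS 1, 2 and 3. The maternal DSS libraries thus held both the lowest and the highest value, with the 3 controls between them, and the group means were 14.4 ± 0.987 and 14.4 ± 4.35 FPKM. Cldn8 is known as a claudin of the distal colon. The summed distal colon markers (5 of 6 genes in the table, mostly Hoxb13) were also lowest in maternal DSS 1, at 58.1 FPKM against 95.6 to 120 FPKM in the other 5 libraries, and highest in control 3, whose Cldn8 level was not high; their part in the Cldn8 levels was not tested. The log2 fold change of Cldn8 was -0.04 (SE 0.19, limma adjusted p = 0.94), and it was 0.17 without maternal DSS 1 and -0.24 without maternal DSS 2.

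Cldn1 was low in 5 libraries and higher in 1. It had 1.78, 1.68 and 2.38 FPKM in the controls, and 4.03, 1.89 and 1.75 FPKM in maternal DSS 1, 2 and 3. Maternal DSS 1 is also the library with the most stratified squamous transcripts, with Krt5 at 39.7 FPKM against 1.59 to 11.7 FPKM and Trp63 at 2.17 FPKM against 0.105 to 0.759 FPKM elsewhere, and their part in the Cldn1 level was not tested. The log2 fold change was 0.22 (SE 0.24, limma adjusted p = 0.74) with all libraries and -0.06 (SE 0.13) without maternal DSS 1. Cldn1 therefore gave no direction that held without 1 library.

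Pore-forming and sealing claudins did not separate the groups when set against each other. The summed level of Cldn2 and Cldn15 was 116, 115 and 132 FPKM in the controls, and 107, 110 and 117 FPKM in maternal DSS libraries, and that of Cldn1, Cldn3, Cldn4 and Cldn8 was 259, 240 and 230 FPKM against 257, 259 and 256 FPKM. The pore-forming sum was 0.501 ± 0.0642 of the sealing sum in controls and 0.433 ± 0.0211 in maternal DSS libraries (SD, n = 3 each). Values overlapped, since control 1 had 0.45 and maternal DSS 3 had 0.457. These sums are weighted to the abundant genes, with Cldn3 the largest part of the sealing sum. With each gene weighted alike, as the mean log2(FPKM + 1) of the pore-forming minus that of the sealing genes, the values were 1.13, 1.24 and 1.55 in controls and 0.918, 1.16 and 1.37 in maternal DSS libraries, a difference of -0.15 between means whose SDs were 0.22 in both groups. It became -0.03 when control 3 was left out, -0.04 when maternal DSS 1 was, and -0.26 when maternal DSS 3 was. On both measures control 3 was the highest library and maternal DSS 1 the lowest. Control 3 combined the highest Cldn2 with the lowest Cldn4, and maternal DSS 1 the lowest Cldn2 with nearly the highest Cldn4.

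**Figure D3:**
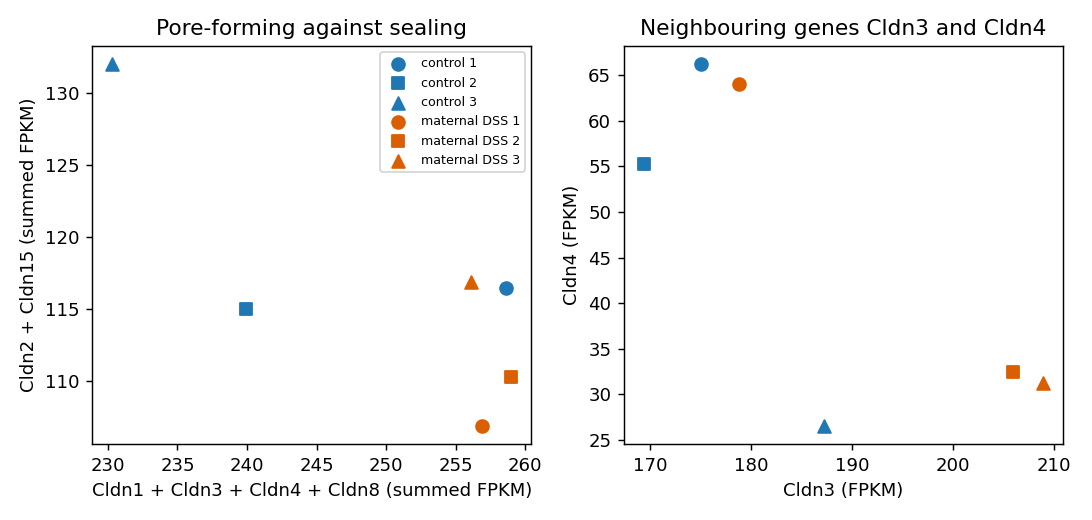
Left, summed FPKM of the pore-forming Cldn2 and Cldn15 against that of the sealing Cldn1, Cldn3, Cldn4 and Cldn8. Right, Cldn4 against its chromosomal neighbour Cldn3, both in FPKM. Each point is 1 library (blue, control; orange, maternal DSS), and axes do not start at 0. The 3 libraries with Cldn4 below 33 FPKM are control 3 and maternal DSS 2 and 3.

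The remaining members varied little or in both directions. Cldn12 had 17.7, 16.5 and 17.2 FPKM in the controls, and 15.2, 14.1 and 16.8 FPKM in maternal DSS libraries. Maternal DSS 3 lay within the controls and the other 2 below them, with a log2 fold change of -0.15 (SE 0.08, 95% interval -0.35 to 0.05, limma adjusted p = 0.62). Cldn12 was the member with the smallest unadjusted p, 0.116, which ranked 2538 among all tested genes. Rescaled to equal FPKM sums, it had an unadjusted p of 0.0261 (adjusted p = 0.56 in limma, log2 fold change -0.26), and its groups and those of Cldn2 no longer overlapped, while those of Cldn7 did.

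Cldn23 had 22.7, 18 and 15.5 FPKM in the controls, and 23.6, 17.6 and 18.9 FPKM in maternal DSS 1, 2 and 3. Like Cldn4 it was highest in control 1 and maternal DSS 1 and lowest in control 3. Its log2 fold change was 0.10 (SE 0.16, limma adjusted p = 0.82) and turned to -0.02 both without control 3 and without maternal DSS 1.

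Cldn5, the vascular claudin, had 4.75, 5.48 and 5.34 FPKM in the controls, and 4.85, 5.82 and 4.87 FPKM in maternal DSS libraries, with both groups spread over the same range (log2 fold change -0.0048, SE 0.10, 95% interval -0.24 to 0.23, limma adjusted p = 0.99). The summed endothelial markers (10 of 10 genes in the table) were 59 to 69.5 FPKM in the controls, and 53.9 to 66.7 FPKM in maternal DSS libraries, and their order of libraries differed from that of Cldn5.

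**Figure D4:**
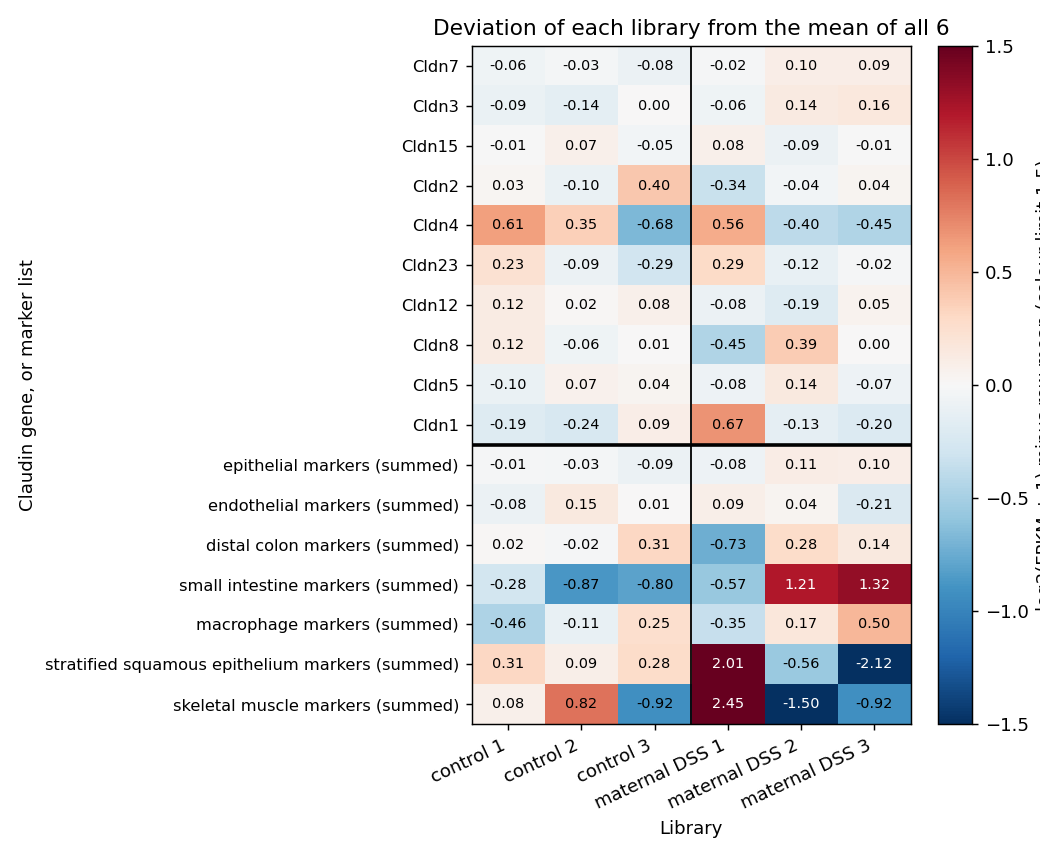
Deviation of each library from the mean of the 6 libraries, in log2(FPKM + 1), for the 10 claudins (above the thick line) and for the summed FPKM of marker lists (below it); red is above the mean, blue below, and colours saturate at 1.5. Cldn4 is above its mean in controls 1 and 2 and maternal DSS 1 and below it in the other 3, and the squamous and skeletal muscle lists are highest in maternal DSS 1, where Cldn1 is also highest.

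The table held 13 further symbols that begin with Cldn. Only 2 of them were measured above the testing level. Cldnd1, a claudin domain protein of less settled function, had 19 to 21.7 FPKM in the controls, and 18.4 to 21.4 FPKM in maternal DSS libraries. Cldn10, which forms ion channels in kidney and glands, had 0.92, 0.604 and 1.38 FPKM in the controls, and 3.75, 1.11 and 1.5 FPKM in maternal DSS 1, 2 and 3, so that like Cldn1 it was highest in maternal DSS 1 (log2 fold change 0.59 with SE 0.30, limma adjusted p = 0.62). The other 11, among them Cldn14, did not exceed 1.38 FPKM in any library.

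Genes of proteins that work with claudins at the junction were described by the same fit. The 26 partners listed included scaffolds such as Tjp1, the tricellular junction proteins Marveld2, Lsr and Ildr1, occludin, junctional adhesion molecules, polarity proteins and Mylk. Of these 24 were tested, 2 had a log2 fold change above 0 and 22 below, with a median of -0.16 beside -0.04 over all tested genes. The counts were 6 and 18 after median-ratio scaling and 1 and 23 when rescaled to equal FPKM sums, and the median was -0.05 without maternal DSS 3. The share of all tested genes below 0 was not counted, so 22 of 24 cannot be called particular to these genes. In limma 0 of the 24 had an adjusted p under 0.05, and 1 had an unadjusted p under 0.05, beside 7.83% of all tested genes. That gene was Ildr1, which recruits tricellulin to the corners where 3 cells meet. It had 41.9, 43.1 and 41.8 FPKM in the controls, and 51.6, 51.3 and 48.3 FPKM in maternal DSS 1, 2 and 3, so the groups did not overlap (log2 fold change 0.25, SE 0.07, unadjusted p = 0.00639, limma adjusted p = 0.62). Nor did they overlap for Marveld2, Jam3 and Tjp3, which were lower in maternal DSS libraries. Over all tested genes the share without overlap was 14.1%, and 4.92% in the higher direction. With weighted libraries 9 of the 24 passed the adjusted threshold in limma, beside 36.3% of all genes, and Ildr1 was among them (adjusted p = 0.0103). Unlike Cldn3 and Cldn7, Ildr1 was as high in maternal DSS 1 as in maternal DSS 2.

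Genes whose pattern over the 6 libraries lay closest to that of a claudin were found by the root-mean-square difference of log2(FPKM + 1) after each gene was centred on its mean. For Cldn4, whose own root-mean-square deviation was 0.52, the nearest gene was Dusp10, a phosphatase of stress-activated kinases, at 0.06. Dusp10 had 7.42, 6.53 and 2.72 FPKM in the controls, and 8.15, 3.29 and 3.18 FPKM in maternal DSS libraries, with the same 3 libraries low. The next nearest were Gm42267 and Gm45988, predicted genes. Nearest to Cldn8 (own deviation 0.25) were Capn13, a calpain protease, at 0.06, then AI854703, then Ccl28, a chemokine of mucosal epithelia, at 0.07. Nearest to Cldn2 (own deviation 0.22) were Plscr2, Tmem50b and Spats2l at 0.07 to 0.08. For Cldn15 (own deviation 0.06) the nearest were Tmem181a, Cisd2 and Zdhhc16, at 0.01 to 0.02. With 6 libraries and 13594 genes, near patterns are easily found.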

How the data were processed

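RNA of colon was measured in 6 libraries (3 control, 3 maternal DSS) prepared with a lipid tissue RNA kit and a stranded mRNA kit, per the labels' protocols. The authors deposited FPKM per gene and library. Tools listed in the submitters' processing notes are HISAT2 2.1.0 and StringTie 2.1.3b, with Trimmomatic 0.38, FastQC 0.11.7 and DESeq2, and the build is mm10. Their roles and the annotation are not given in the sources used. Low values followed no step of whole reads, so depth is unknown. FPKM depends on the make-up of each library, whose FPKM sums ranged from 403673 to 492719.

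The 13594 genes that reached 1 FPKM in 3 or more libraries were fitted as log2(FPKM + 1) with limma 3.58.1 (R 4.3.3, mean-variance trend, group alone) and adjusted by the Benjamini-Hochberg method; the fit was tested on simulated data. Log2 fold changes on this scale understate changes of low genes. All 10 members were named. Other claudins were named at the testing level, partners at an unadjusted p under 0.05, and the 3 nearest genes for each of 4 claudins. The members and lists were chosen with earlier results of these data known. Coordinates and promoter windows are from RefSeq GRCm38.p6, the assembly of mm10, and exons from GENCODE M21. Alternatives were another pseudocount, other filters and scalings, array weights, a replicate block and leaving out each library.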

Additional observations from a re-analysis of the deposited data

How the results depend on the processing

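No adjusted call was made for any claudin or other gene with all 6 libraries equally weighted, under the pseudocount of 0.1, no filter, the filter of 5 FPKM, the 3 scalings or the replicate block. Without maternal DSS 1 there were 10 calls among all genes and 0 without any other library. Array weights, which counted maternal DSS 2 most (5.47) and maternal DSS 1 least (0.249), called 4933 genes, among them Cldn3 (log2 fold change 0.24, adjusted p = 0.0165), Cldn4 (-0.71, 0.0319) and Cldn12 (-0.23, 0.0214); over all alternatives the adjusted p of these 3 reached 0.995, 1 and 0.995. The count of claudins whose groups did not overlap, 1 as deposited, was 0 after median-ratio scaling, 2 when rescaled to equal FPKM sums, and 1 to 2 when a library was left out. The pore-forming minus sealing difference was below 0 under each alternative run, array weights (-0.06) included (-0.26 to -0.03).

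Of 139 values of single claudins under alternatives, 117 kept direction and side of the threshold and 19 changed sign; limma's test passed in none of these 19. Median-ratio scaling gave 0.042 for Cldn15, 0.042 for Cldn5 and 0.011 for Cldn8. Rescaling to equal FPKM sums gave -0.0072 for Cldn23. Array weights gave -0.11 for Cldn23, 0.12 for Cldn5 and 0.31 for Cldn8. Leaving out 1 library at a time gave -0.056 to 0.38 for Cldn1, -0.055 to 0.030 for Cldn15, -0.023 to 0.24 for Cldn23, -0.58 to 0.067 for Cldn4, -0.078 to 0.033 for Cldn5 and -0.24 to 0.17 for Cldn8. The cause of these changes was not tested. Same-numbered libraries of the groups had deviations that correlated at 0.276, -0.384 and 0.404 across genes. Differently numbered libraries ranged from -0.541 (control 3 with maternal DSS 1) to 0.512 (control 2 with maternal DSS 1). The numbers were therefore not taken to pair libraries, and the fit with a replicate block also called 0 genes. Depth is unknown, so its limit on the low Cldn1 and Cldn10 cannot be given.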
